A study of Homo sapiens with 12 samples.

Results

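K562 cells transfected with an siRNA against RHOB (siRHOB) were compared with K562 cells transfected with a negative control siRNA (siNC), both kept in growth medium. The comparison took all libraries that the sample titles place in this medium, which were 6 of the 12 libraries of the series, and set siRHOB replicate 1, 2 and 3 against the siNC replicate of the same number. K562 is an established human leukaemia cell line, described in the labels as wild type, so every library came from the same line and carried no altered RHOB gene. The other 6 libraries received the same siRNAs and were kept in megakaryocyte differentiation medium (MK medium). Per the series' design text the cells were cultured for 3 days, and the question was what RHOB does in megakaryocyte and erythroid differentiation. No source used here gives the sequence of the siRNA. The labels are silent on whether a replicate is a culture of its own, and the p-values below therefore cover the spread among these libraries, part of which may be technical.

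RHOB is a small GTPase that switches between a GDP-bound and a GTP-bound form and acts on actin filaments and on the traffic of endosomes. Unlike the closely related RHOA and RHOC it is short-lived, and its gene is itself an immediate early gene that growth factors and stress switch on quickly. A pair of rapid response systems recurs below. In the integrated stress response, phosphorylation of the initiation factor eIF2 favours translation of the transcription factor ATF4, which switches on amino acid transport and synthesis genes through a composite C/EBP-ATF site. Immediate early genes such as FOS and EGR1 are switched on by MAP kinase signalling through serum response factor and CREB.

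The sequences printed here are promoter windows of genes from these systems that were lower with siRHOB in every pair. They were taken from RefSeq on GRCh38.p14, from 250 bases before to 50 bases after the annotated start, and are printed 5′ to 3′ on the gene's own strand. In the first 3, capitals mark TGATGNAA on either strand, the letters of the composite site. In the last, they mark the cyclic AMP response element TGACGTCA, whose letters are the same on both strands. The windows are chr15:40953221-40953520 (plus strand) for CHAC1, chr1:212565157-212565456 (plus strand) for ATF3, chr11:62881449-62881748 (plus strand) for SLC3A2 and chr5:172771146-172771445 (minus strand) for DUSP1. ATF3 and SLC3A2 have further starts in RefSeq that are not shown.
CHAC1: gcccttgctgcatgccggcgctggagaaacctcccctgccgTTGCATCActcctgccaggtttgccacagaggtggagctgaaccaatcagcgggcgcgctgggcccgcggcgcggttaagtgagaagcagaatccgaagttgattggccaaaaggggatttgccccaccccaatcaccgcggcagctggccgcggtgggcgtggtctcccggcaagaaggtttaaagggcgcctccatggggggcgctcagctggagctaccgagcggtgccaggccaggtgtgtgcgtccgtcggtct
ATF3: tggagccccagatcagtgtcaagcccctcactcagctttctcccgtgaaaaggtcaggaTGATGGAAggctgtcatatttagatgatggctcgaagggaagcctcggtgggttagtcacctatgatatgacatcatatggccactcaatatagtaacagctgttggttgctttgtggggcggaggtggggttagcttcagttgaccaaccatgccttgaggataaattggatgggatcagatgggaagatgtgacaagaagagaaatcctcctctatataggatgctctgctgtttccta
SLC3A2: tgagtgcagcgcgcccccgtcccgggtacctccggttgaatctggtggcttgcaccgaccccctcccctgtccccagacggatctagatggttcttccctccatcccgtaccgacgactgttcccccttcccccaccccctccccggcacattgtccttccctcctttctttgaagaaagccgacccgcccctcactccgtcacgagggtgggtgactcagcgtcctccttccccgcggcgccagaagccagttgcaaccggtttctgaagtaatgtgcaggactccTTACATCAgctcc
DUSP1: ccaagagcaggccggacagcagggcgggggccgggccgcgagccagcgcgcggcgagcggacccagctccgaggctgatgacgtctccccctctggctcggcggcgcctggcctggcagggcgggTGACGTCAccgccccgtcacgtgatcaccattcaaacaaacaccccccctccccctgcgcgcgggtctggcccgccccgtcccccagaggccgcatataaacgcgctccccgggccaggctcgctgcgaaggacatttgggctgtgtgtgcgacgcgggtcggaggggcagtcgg
The match began 209 bases before the start in CHAC1, 191 bases before it in ATF3, 37 bases after it in SLC3A2 and 125 bases before it in DUSP1. A match is a run of letters and does not show that a factor was bound there.

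The siNC libraries held 41117941, 54048161 and 42927185 reads and the siRHOB libraries 38653567, 42314905 and 39943952. Levels are given as CPM, read counts scaled to a common library size after TMM normalisation, which evens out differences in library make-up. Of 19225 genes, 12585 had enough reads to be tested. All 14 K562 identity markers were detected, with summed levels of 5205 to 6345 CPM with siNC and 4774 to 5843 CPM with siRHOB. Summed marker levels, here and in the next sentences, were scaled to total reads only, without TMM normalisation. Among markers of other cells, 5 of 16 monocyte and granulocyte genes were tested (28.7 to 81.4 CPM summed with siNC, 29.5 to 82.8 CPM with siRHOB, CTSG at 0). Of 15 lymphoid genes 3 were tested, with 8.57 to 13.3 CPM and 7.89 to 12.3 CPM summed and with CD8A, MS4A1 and KLRD1 at 0. Of 15 fibroblast, epithelial and endothelial genes 8 were tested, with 1029 to 1071 CPM and 1003 to 1019 CPM summed and with CDH5 and KDR at 0. Replicate 3 stood apart from replicates 1 and 2 with either siRNA: log2 CPM of replicates 1 and 2 correlated at 0.994 (siNC) and 0.991 (siRHOB), whereas replicate 3 reached 0.978 to 0.980 with the other ones. The same-numbered libraries shared this difference. Each siRHOB library is set below against the siNC partner of the same number.

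RHOB itself was read first, since it is the siRNA's target. The siNC libraries held 243, 241 and 63 RHOB reads, or 6.09, 4.53 and 1.40 CPM. The siRHOB libraries held 117, 134 and 19 reads, or 3.09, 3.24 and 0.456 CPM. RHOB was therefore lower with siRHOB in 3 of 3 pairs, at 50.8%, 71.3% and 32.5% of its siNC partner, while siNC replicate 3 lay below siRHOB replicates 1 and 2, so the groups overlapped. The mean log2 ratio over pairs was -0.99 ± 0.52 (SD, 3 pairs). The fitted log2 fold change was -0.92 ± 0.23 (SE), with an adjusted p = 0.71 in edgeR's quasi-likelihood test over all tested genes, and it did not pass the threshold of 0.05. Without replicate 2 it was -1.21 with an adjusted p = 0.0472, and in the other alternatives run it did not pass. An exact two-sided sign-flip test of the 3 pair ratios gave p = 0.25, the smallest that 3 pairs allow.

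RHOA and RHOC, the most similar family members, differed between the groups by less than the spread of the replicates. RHOA stood at 226 ± 3.78 FPKM (fragments per kilobase of gene, scaled to library size, SD, n = 3) with siNC and 229 ± 3.77 FPKM with siRHOB. RHOC stood at 100.3 ± 7.56 and 98.0 ± 7.04 FPKM. On this per-length scale RHOB, at 1.66 ± 0.95 and 0.94 ± 0.64 FPKM, was the least abundant of them in both groups. Pair log2 ratios of RHOA were 0.061, -0.011 and 0.0097, and those of RHOC were 0.15, -0.0042 and -0.25, so neither moved one way. Of the 18 tested genes of the list of RHOB and its closest GTPase relatives, RHOBTB2, RHOQ and RHOBTB3 were also lower in all 3 pairs, which with RHOB makes 4 (22.2%), and 0 were higher; RHOBTB2, an atypical member, had a log2 fold change of -0.35 ± 0.18 (SE, adjusted p = 1).

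**Figure D1:**
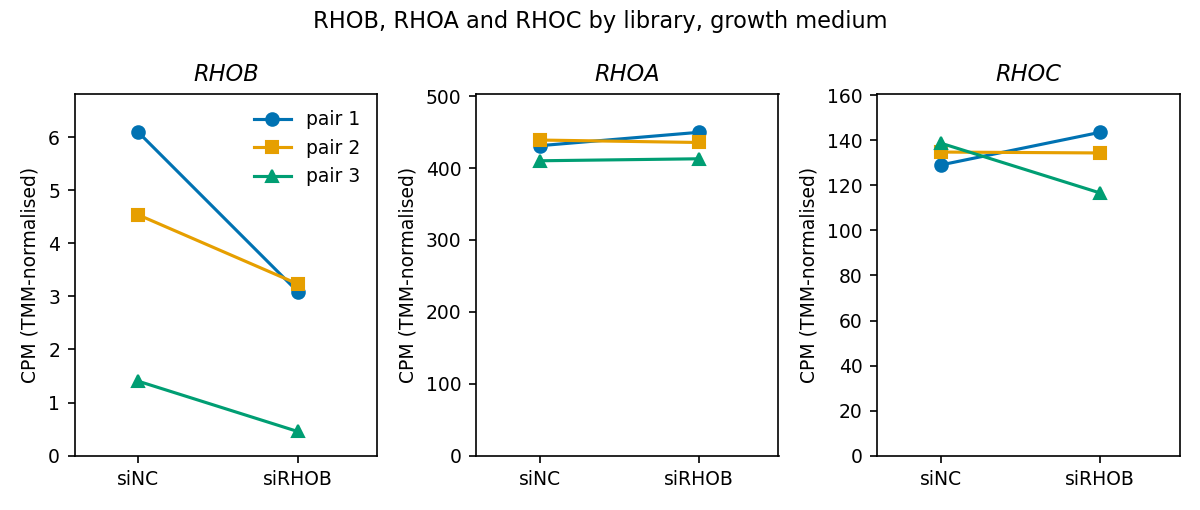
TMM-normalised CPM of RHOB, RHOA and RHOC (vertical axes, each from 0) in the siNC and siRHOB libraries, with a line joining the libraries of a pair. RHOB is lower with siRHOB in every pair, from 6.09 to 3.09, 4.53 to 3.24 and 1.40 to 0.456 CPM, while RHOA stays between 410.1 and 449.7 CPM.

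Of the 12585 tested genes, 2 changed past an adjusted p of 0.05 in the paired fit (0.0159%). Both fell with siRHOB: GYPB, which encodes the red cell surface protein glycophorin B, and PPP2R3B, a regulatory subunit of protein phosphatase 2A. No gene rose past the threshold (DESeq2 and limma on FPKM each passed 1, GTPBP6), and 286 genes (2.27%) reached an unadjusted p under 0.05, of which 70 (0.556%) were higher and 216 (1.72%) lower. The 3 libraries of each group did not overlap for 230 higher genes (1.83%) and 243 lower genes (1.93%). A lower level in a bulk library can come from fewer cells of a type or from less RNA per cell, and these cannot be told apart.

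GYPB had 1180, 1701 and 1426 reads with siNC and 436, 381 and 554 reads with siRHOB. These were 29.6, 32.0 and 31.7 CPM against 11.5, 9.20 and 13.3 CPM, with no overlap between groups. The paired edgeR fit gave a log2 fold change of -1.47 ± 0.12 (SE) with an adjusted p = 2.26e-05, and the pair log2 ratios were -1.36, -1.79 and -1.25. GYPE, a related gene, did not follow it, with a log2 fold change of -0.08 ± 0.08 (SE). In MK medium GYPB had 789, 334 and 241 reads with siNC and 326, 807 and 303 with siRHOB, so its pair log2 ratios of -1.42, 0.99 and 0.40 went both ways. The call of GYPB was lost without the replicate block (adjusted p = 0.109) and in both fits of all 12 libraries (adjusted p = 1); over its alternatives the adjusted p ran from 1.8e-21 to 1. By GENCODE 29 transcripts, 3.51% of the 100-base windows of GYPB occur in another gene. This share covers exact matches only and sets no bound on reads placed in a similar gene. How shared reads were counted is not stated, so the level of GYPB is uncertain.

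PPP2R3B had 256, 191 and 246 reads with siNC and 61, 50 and 17 with siRHOB. Its pair log2 ratios were -1.96, -1.54 and -3.60, the groups did not overlap, and edgeR gave it an adjusted p = 0.0205 with a log2 fold change of -2.31 ± 0.31 (SE). The call was lost without the replicate block (adjusted p = 1), with a non-robust dispersion (0.0572), in the 12-library fit with a common block (1) and in limma on FPKM (0.242). It was also lost in both fits that question the pairing of numbers 1 and 2, a block of 2 levels (0.174) and numbers 1 and 2 crossed (0.338); over its alternatives the adjusted p ran from 2.25e-16 to 1. PPP2R3B lies in a pseudoautosomal region, present in identical copies on the X and Y chromosomes of the reference, so its count is uncertain. The 9 tested pseudoautosomal genes were erratic as a class: their median SD of the pair log2 ratios was 1.09, against 0.169 for the other 12576 genes. CD99, for instance, a cell surface glycoprotein from the same class, had 730, 1103 and 1169 reads with siNC and 46, 881 and 1040 with siRHOB. GTPBP6, also of this class, had 76, 20 and 12 reads with siNC and 169, 78 and 77 with siRHOB, higher in every pair, with a log2 fold change of 1.96 ± 0.32 and an adjusted p = 0.058 (0.000237 to 1 over its alternatives). CD99 and GTPBP6 were chosen after their values were seen.

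Movement in the same direction in all 3 pairs covered more genes than passed the threshold, but it was small. With siRHOB 1150 genes (9.14%) were higher in every pair and 1245 (9.89%) were lower in every pair, together 19% of the tested genes. With independent pairs and no effect, a share of 0.25 of genes would move the same way in all 3 pairs. The share seen lay below that, so these counts alone do not show a response to siRHOB. The median of their mean log2 ratios was 0.12 for the higher and -0.17 for the lower genes. More than 1.5-fold in every pair were 11 genes higher (0.0874%) and 29 lower (0.23%), of which 0 and 3 reached 5 CPM: PPP2R3B, GYPB and OSGIN1. Over all tested genes the log2 ratios of different pairs correlated at -0.05, 0.01 and 0.06 (Pearson, across genes, which are not independent replicates), and their SD across genes was 0.39, 0.34 and 0.31 in pairs 1, 2 and 3. The rank correlations (Spearman) were -0.19 between pairs 1 and 2, -0.08 between pairs 1 and 3 and 0.06 between pairs 2 and 3, so pairs 1 and 2 tended weakly to opposite ways over all genes, and the gene groups described next stand beside that background.

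**Figure D2:**
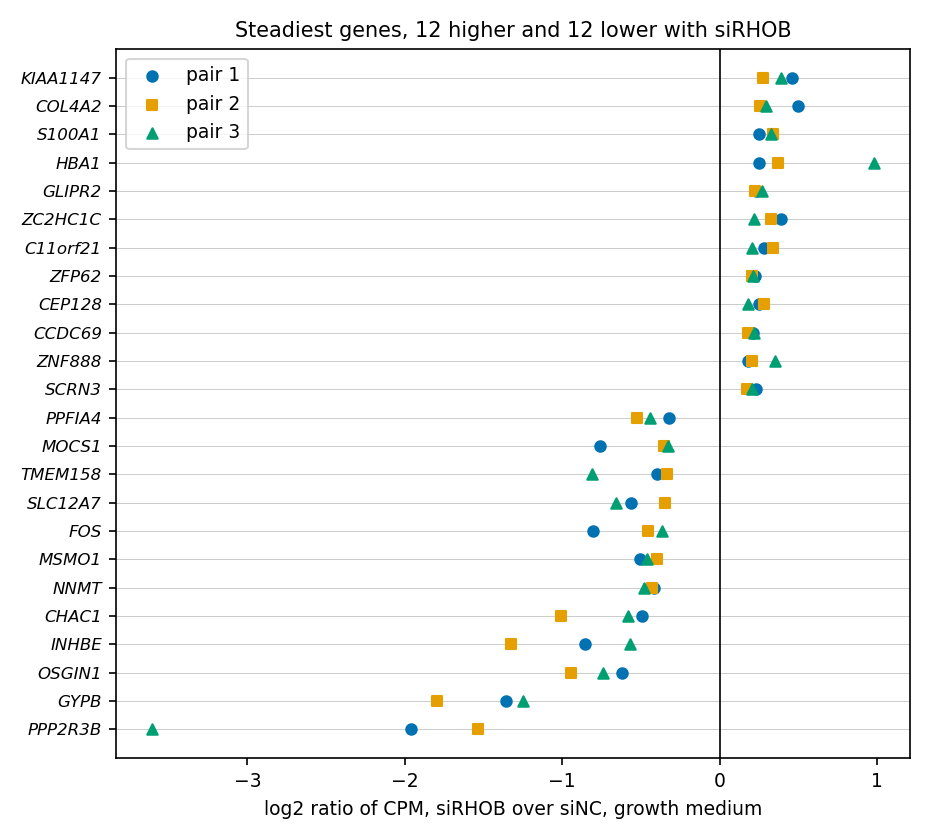
Log2 ratios of CPM, siRHOB over siNC (horizontal axis), in each of the 3 pairs for the 12 genes higher and the 12 lower in every pair whose smallest ratio was largest, among genes that reached 5 CPM in one group. GYPB and PPP2R3B lie furthest below 0, and apart from HBA1 in pair 3 the higher genes lie under 0.5.

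The steadiest lower genes, ranked by their smallest pair ratio among genes of at least 5 CPM, were PPP2R3B, GYPB, OSGIN1, INHBE, CHAC1, NNMT, MSMO1, FOS, SLC12A7, TMEM158, MOCS1 and PPFIA4. OSGIN1, which is induced by oxidative stress, stood at 9.47, 11.8 and 9.23 CPM with siNC and 6.16, 6.08 and 5.49 CPM with siRHOB, with no overlap. Its log2 fold change was -0.78 ± 0.14 (adjusted p = 0.0987, and 0.0222 in DESeq2 and 0.00644 without a filter on low counts, with 0.00243 to 1 over its alternatives). INHBE, the inhibin beta E chain and a known target of the stress response, stood at 6.69, 8.92 and 3.98 CPM with siNC and 3.67, 3.53 and 2.66 CPM with siRHOB, again without overlap (log2 fold change -0.94 ± 0.18, adjusted p = 0.123, with 0.000397 to 1 over its alternatives). TMEM158, first described as induced by RAS, had pair log2 ratios of -0.40, -0.34 and -0.81 (log2 fold change -0.52 ± 0.12, adjusted p = 0.372, with 0.00507 to 1 over its alternatives). SLC12A7, a potassium-chloride cotransporter, had pair log2 ratios of -0.56, -0.35 and -0.66, and NNMT, nicotinamide N-methyltransferase, -0.42, -0.43 and -0.48.

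The steadiest higher genes moved less. They were KIAA1147, COL4A2, S100A1, HBA1, GLIPR2, ZC2HC1C, C11orf21, ZFP62, CEP128, CCDC69, ZNF888 and SCRN3, and none passed the adjusted threshold. HBA1, an alpha globin gene, stood at 19.0, 21.9 and 17.4 CPM with siNC and 22.6, 28.3 and 34.2 CPM with siRHOB (log2 fold change 0.53 ± 0.13, adjusted p = 0.61, with 0.00813 to 1 over its alternatives). Its near-identical neighbour HBA2 had pair log2 ratios of -0.23, 0.05 and -0.35, and 79.3% of the windows of HBA1 occur in another gene, so the split of reads between them is uncertain. COL4A2, a basement membrane collagen chain, stood at 4.09, 4.23 and 6.50 CPM with siNC and 5.79, 5.07 and 7.97 CPM with siRHOB (0.35 ± 0.16, adjusted p = 1). ZFP62, a zinc finger protein, was the most even of the 12, with pair log2 ratios of 0.22, 0.20 and 0.21 and groups that did not overlap. S100A1, a calcium-binding protein, had pair log2 ratios of 0.25, 0.34 and 0.32 in growth medium and -0.20, -0.12 and -0.23 in MK medium.

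**Figure D3:**
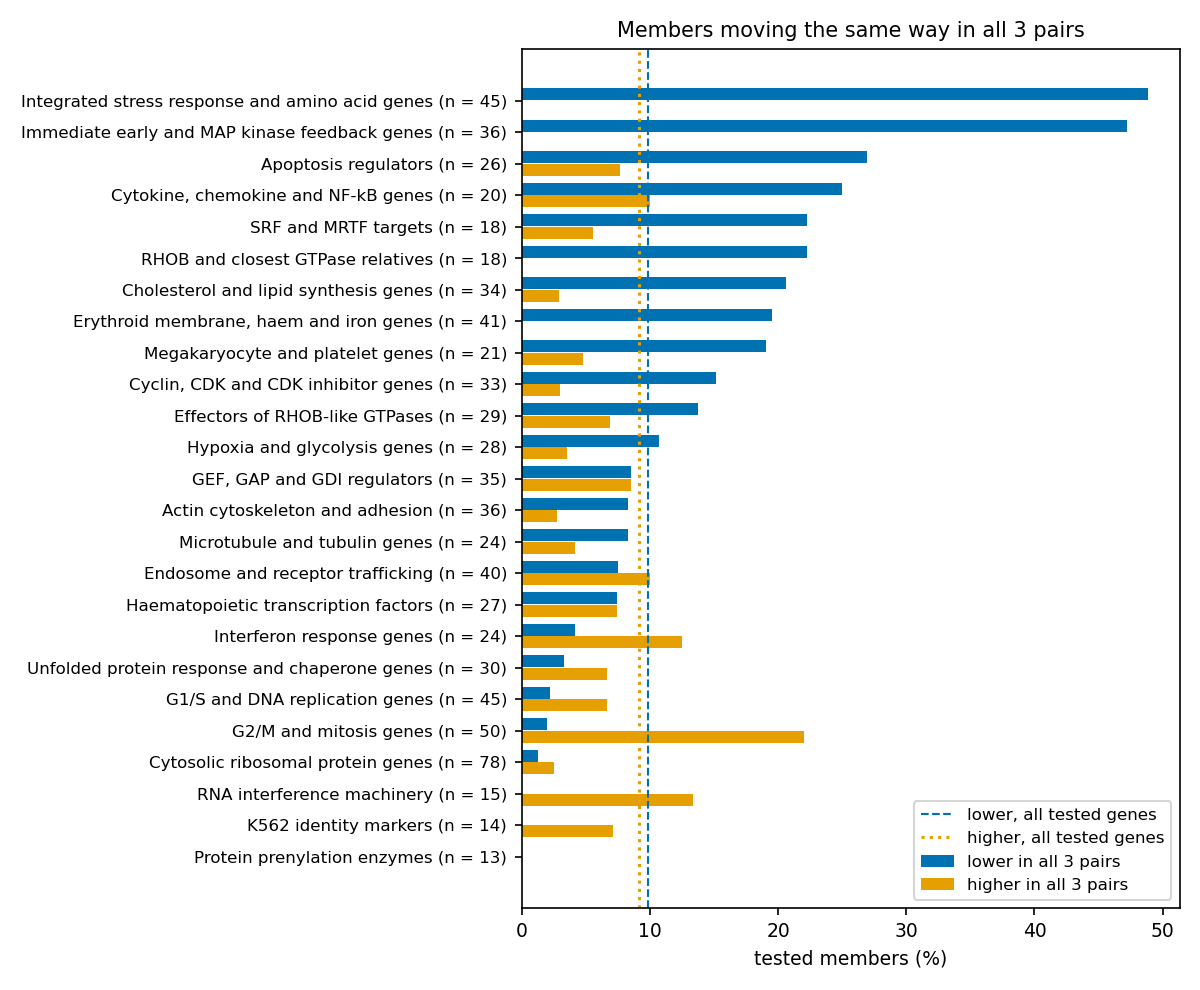
Share of the tested members of each gene list with 10 or more tested members (horizontal axis, percent) that were lower (blue) or higher (orange) with siRHOB in all 3 pairs; vertical lines give the shares over all tested genes, 9.89% lower and 9.14% higher. The integrated stress response (48.9% lower) and immediate early lists (47.2% lower) reach furthest, and neither has a member higher in every pair. All lists were chosen with earlier results of these data known.

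Genes of the integrated stress response and amino acid supply were lower in part. Of 45 tested members 22 (48.9%) were lower with siRHOB in every pair and 0 were higher, beside 9.89% and 9.14% of all tested genes. This list, like the others, was chosen with earlier results of these data known, so the contrast is a description and not a test. At an unadjusted p under 0.05, 14 were lower and 0 higher, where 1.72% and 0.556% of all tested genes were. Past the adjusted threshold were 0 in edgeR, as in DESeq2 and limma on FPKM. The median log2 fold change of the 45 was -0.16, beside -0.0015 over all tested genes, and it was -0.095 without replicate 1. By pair, the median log2 ratio was -0.15, -0.18 and -0.04, so that pair 3 showed the smallest shift.

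Among the regulators, ATF4 itself, which acts mainly through its translation, stood at 366, 354 and 222 CPM with siNC and 327, 322 and 221 CPM with siRHOB (log2 fold change -0.10 ± 0.07, adjusted p = 1). ATF3, a transcription factor downstream of it, stood at 26.7, 24.3 and 7.65 CPM against 16.4, 17.8 and 6.50 CPM (-0.47 ± 0.12, adjusted p = 0.748). DDIT3, which encodes CHOP, stood at 30.8, 30.2 and 17.2 CPM against 19.9, 23.8 and 15.4 CPM (-0.38 ± 0.11, adjusted p = 1). Each was lower in every pair, and for all of them the difference was smallest in pair 3, where the siNC level was lowest. ATF4 was nearly level in that pair, at 222 against 221 CPM. TRIB3, a pseudokinase that restrains ATF4, had even pair log2 ratios of -0.18, -0.26 and -0.22.

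The effector genes read here encode enzymes, transporter chains and a secreted factor. CHAC1, which degrades glutathione, stood at 7.02, 9.09 and 2.89 CPM with siNC and 4.97, 4.49 and 1.92 CPM with siRHOB (log2 fold change -0.71 ± 0.17, adjusted p = 0.61). SLC7A11, the cystine transporter subunit, stood at 87.0, 91.1 and 64.7 CPM against 57.1, 69.6 and 56.6 CPM (-0.40 ± 0.09, adjusted p = 0.54, with 0.0489 to 1 over its alternatives). SLC3A2, its partner chain, stood at 174, 180.3 and 270 CPM against 146, 155 and 217 CPM (-0.26 ± 0.07, adjusted p = 1, with 0.0261 to 1 over its alternatives). For each of these genes the groups overlapped when replicate 3 was included and did not overlap among replicates 1 and 2, and within pairs every siRHOB value was the lower. GDF15, a secreted stress cytokine, stood at 35.7, 38.1 and 35.3 CPM with siNC and 33.4, 24.4 and 20.8 CPM with siRHOB (-0.50 ± 0.12, adjusted p = 0.569, with 3.04e-06 to 1 over its alternatives), without overlap. PHGDH, the entry enzyme of serine synthesis, had pair log2 ratios of -0.64, -0.96 and -0.03, and so was nearly level in pair 3. ASNS, asparagine synthetase and a standard reporter of the response, stood at 213, 249 and 159 CPM against 154, 183 and 166 CPM, so it was lower in pairs 1 and 2 and not in pair 3; 37.0% of its transcript windows occur in another gene. In MK medium 4 of the 22 genes were lower in all 3 pairs as well, where 13% of the genes tested in both media were.

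**Figure D4:**
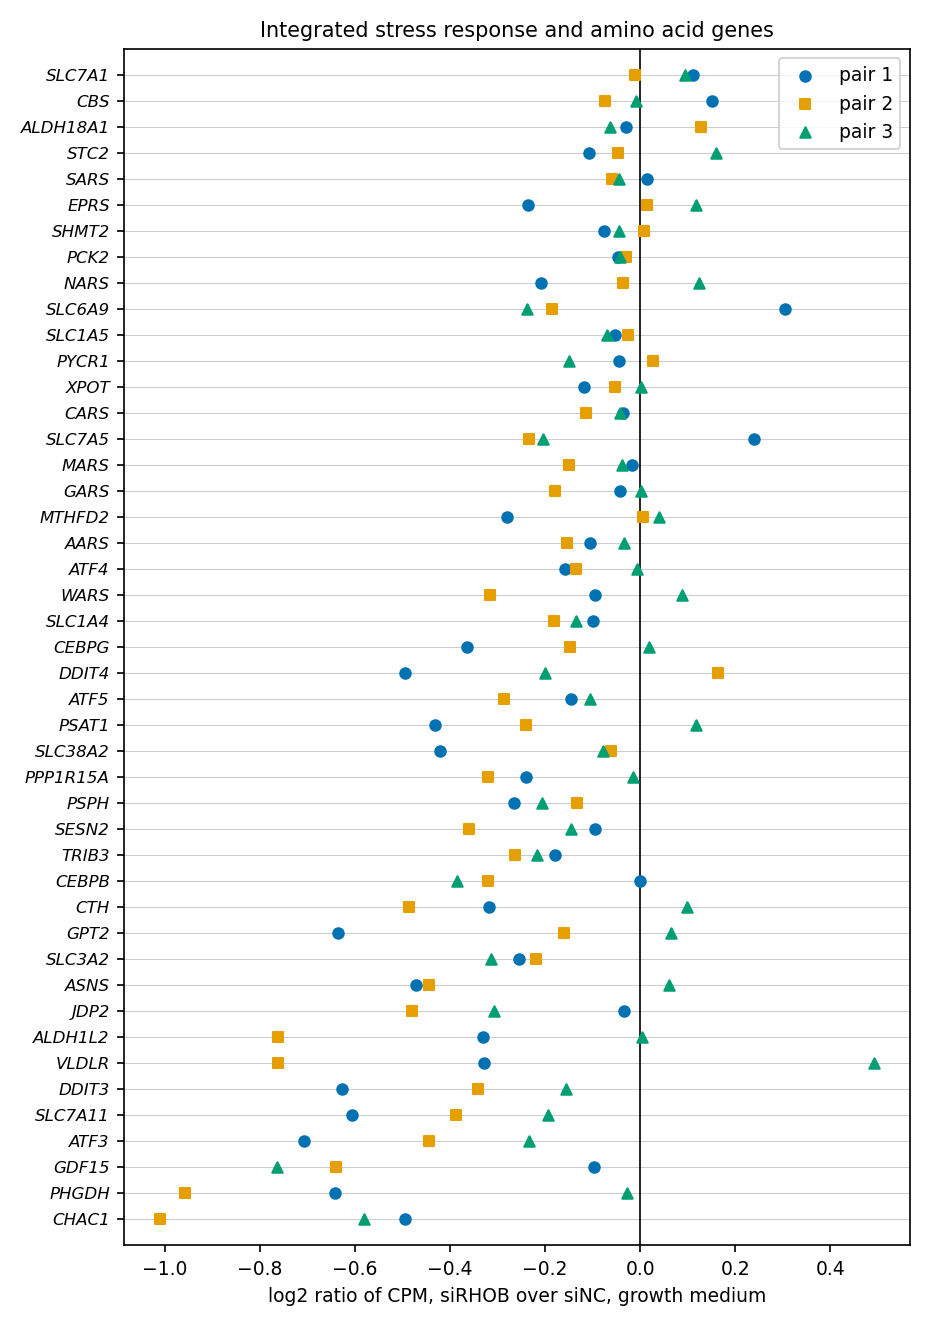
Log2 ratios of CPM, siRHOB over siNC (horizontal axis), in the 3 pairs for the 45 tested genes of the integrated stress response and amino acid list, sorted by fitted log2 fold change. Most points lie left of 0, and pair 3 (triangles) lies nearest to 0 for many members, as its median log2 ratio of -0.04 shows.

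The composite-site letters TGATGNAA, searched on both strands, were found in promoter windows of 6 of the 17 members lower in every pair that RefSeq windows could be matched to (35.3%): ATF3, CHAC1, SLC3A2, SLC1A4, SLC1A5 and JDP2. They were also found in 3 of 14 matched members that were not lower in every pair (21.4%) and in 258 of 9848 matched tested genes (2.62%), and they occur in 3.62% of all 35116 windows. A further run of letters, TGACTCA, was searched in the same way. It was found in 3 of 17 matched members lower in every pair (17.6%), in 0 of 14 that were not and in 4.63% of matched tested genes. The list was built from known members of the response, so a high share over its members is part of how it was chosen.

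Immediate early genes and feedback genes of the MAP kinase pathway were lower in part. Of 36 tested members, 17 (47.2%) were lower with siRHOB in every pair and 0 were higher, beside 9.89% and 9.14% of all tested genes. ATF3 is in this list as well as in the stress list. Both lists were chosen with earlier results of these data known. At an unadjusted p under 0.05, 13 were lower and 0 higher, where 1.72% and 0.556% of all tested genes were. Past the adjusted threshold were 0 in edgeR (1 in DESeq2, FOS). Their median log2 fold change was -0.18, and by pair the median log2 ratio was -0.16, -0.20 and -0.13. In MK medium 0 of the 17 were lower in all 3 pairs, where 13% of the genes tested in both media were.

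FOS, the founding member of the AP-1 family, had 4445, 3379 and 66 reads with siNC and 2413, 1920 and 47 with siRHOB. These were 111, 63.6 and 1.47 CPM against 63.8, 46.4 and 1.13 CPM. FOS was lower in every pair, with log2 ratios of -0.80, -0.46 and -0.37, while its level in replicate 3 was far below that in replicates 1 and 2 with either siRNA. The log2 fold change was -0.60 ± 0.11 (adjusted p = 0.0987), and its adjusted p was 0.00549 in DESeq2, 0.00382 without a filter on low counts and 0.017 in the 12-library fit with a block within medium, within a range of 0.000883 to 1 over its alternatives. In that fit the difference between the effects in growth and MK medium was -0.57 ± 0.11 (SE, adjusted p = 0.294). Its relative FOSB stood at 48.0, 18.6 and 1.40 CPM against 17.3, 10.5 and 1.30 CPM (-0.97 ± 0.18, adjusted p = 0.123, and 0.0362 without a filter on low counts, with 3.14e-11 to 1 over its alternatives), with its difference nearly gone in pair 3. JUN, the AP-1 partner of both, stood at 99.7, 92.8 and 30.5 CPM against 74.4, 59.7 and 26.1 CPM (-0.43 ± 0.09, adjusted p = 0.323, with 0.011 to 1 over its alternatives).

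Of the feedback genes, DUSP1, a phosphatase that inactivates MAP kinases, had pair log2 ratios of -0.49, -0.43 and -0.21 (log2 fold change -0.39 ± 0.10, adjusted p = 1), and PHLDA1 had -1.25, -0.70 and -0.09. EGR1, a zinc finger transcription factor induced within minutes of a stimulus, stood at 843, 596 and 16.4 CPM with siNC and 759.7, 594 and 14.9 CPM with siRHOB, a log2 fold change of -0.09 ± 0.07. It was thus lower in every pair by little. EGR3, its scarcer relative, had 69, 57 and 13 reads against 40, 22 and 2 (-1.06 ± 0.40, adjusted p = 1). The cyclic AMP element TGACGTCA, shown above in DUSP1, was found in windows of 1 of 14 matched members lower in every pair (7.14%), in 3 of 14 that were not (21.4%) and in 3.79% of matched tested genes. The CArG box, the letters read by serum response factor, was found on either strand in 1 of 14 members lower in every pair (7.14%), EGR1, in 1 of 14 that were not (7.14%) and in 1.5% of matched tested genes. TGACTCA was found in 0 of 14 members lower in every pair and in 2 of 14 that were not (14.3%).

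**Figure D5:**
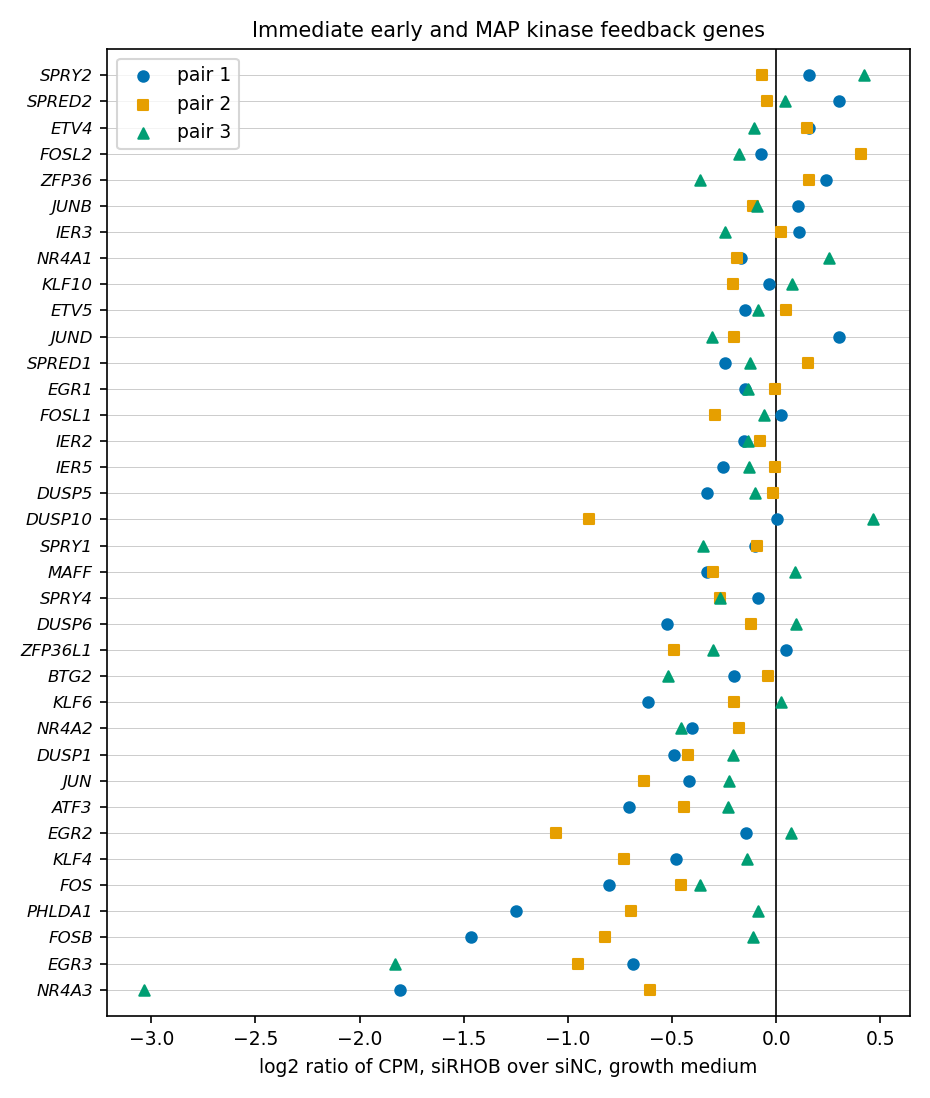
Log2 ratios of CPM, siRHOB over siNC (horizontal axis), in the 3 pairs for the 36 tested immediate early and MAP kinase feedback genes, sorted by fitted log2 fold change. FOS, FOSB, JUN, ATF3 and DUSP1 have all 3 points left of 0, and the widest values belong to NR4A3 and EGR3, which have few reads.

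Cholesterol and lipid synthesis genes were lower in part. Of 34 tested, 7 (20.6%) were lower in every pair and 1 (2.94%) was higher, beside 9.89% and 9.14% of all tested genes. At an unadjusted p under 0.05, 4 were lower, where 1.72% of all tested genes were, with a median log2 fold change of -0.07. MSMO1, which removes the C4 methyl groups of sterol precursors, stood at 111, 105 and 25.8 CPM with siNC and 77.8, 79.9 and 18.7 CPM with siRHOB. Its pair log2 ratios, -0.51, -0.40 and -0.46, lay close together (log2 fold change -0.46 ± 0.08, adjusted p = 0.102, and 0.00295 in DESeq2, with 0.00295 to 1 over its alternatives). IDI1, the isopentenyl diphosphate isomerase, had pair log2 ratios of -0.51, -0.07 and -0.10. The 13 protein prenylation enzymes, which use products of this pathway to anchor small GTPases to membranes, had 0 members lower and 0 higher in every pair.

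Erythroid and megakaryocyte genes were the lineages named by the study. Of 41 tested erythroid membrane, haem and iron genes, 8 (19.5%) were lower in every pair, GYPB among them, and 0 were higher, beside 9.89% and 9.14% of all tested genes, with a median log2 fold change of -0.02. RHCE, the Rh blood group protein, had pair log2 ratios of -0.57, -0.19 and -0.20, and ALAS2, the first enzyme of haem synthesis in red cells, stood at 69.8, 76.4 and 81.7 CPM against 64.3, 64.3 and 70.1 CPM (-0.20 ± 0.08, adjusted p = 1). The fetal globin genes HBG1 and HBG2, near-identical copies, were lower in pairs 1 and 3 and higher in pair 2, with HBG2 log2 ratios of -0.70, 0.29 and -0.38. GATA1, the transcription factor of both lineages, had pair log2 ratios of 0.27, -0.04 and -0.15. Of 21 tested megakaryocyte and platelet genes 4 (19.0%) were lower and 1 (4.76%) was higher in every pair, beside the same shares. ITGA2B, the platelet integrin alpha IIb, had pair log2 ratios of 0.32, 0.06 and -0.20, and PDGFB, a growth factor stored in platelets, had -0.40, -0.27 and -0.68 at 1.58 to 3.91 CPM.

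Genes that act with RHOA, RHOB and RHOC were read against the 9.89% of all tested genes lower and 9.14% higher in every pair. Of 29 tested effectors 4 (13.8%) were lower and 2 (6.90%) higher. Of 35 exchange factors and other regulators 3 (8.57%) were lower and 3 higher, and of 36 actin and adhesion genes 3 (8.33%) were lower and 1 (2.78%) higher. Of 18 targets of serum response factor and its MRTF cofactors 4 (22.2%) were lower and 1 (5.56%) higher, with a median log2 fold change of -0.0013. CFL2, the muscle cofilin that severs actin filaments, had pair log2 ratios of -0.49, -0.15 and -0.11 (-0.25 ± 0.11, adjusted p = 1). MYH9, the main non-muscle myosin heavy chain, had 0.30, -0.03 and -0.02. Among 40 endosome and receptor traffic genes 3 (7.50%) were lower and 4 (10%) higher in every pair, near the shares over all genes.

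Growth and death genes differed by class. Of 50 tested G2/M and mitosis genes 11 (22%) were higher and 1 (2%) was lower in every pair, beside 9.14% and 9.89% of all tested genes, but 0 reached an unadjusted p of 0.05 and their median log2 fold change was 0.04. CENPE, a kinetochore motor, stood at 246, 254 and 193 CPM with siNC and 275, 268 and 219 CPM with siRHOB (0.14 ± 0.07, adjusted p = 1). Of 45 G1/S and replication genes 3 were higher and 1 lower in every pair. CDKN1A, which encodes the cyclin-dependent kinase inhibitor p21, stood at 6.47, 5.12 and 10.3 CPM with siNC and 4.04, 4.37 and 4.63 CPM with siRHOB, without overlap (-0.69 ± 0.18, adjusted p = 0.879, and 0.0188 without replicate 2, with 0.0188 to 1 over its alternatives). Among 26 tested apoptosis regulators 7 (26.9%) were lower and 2 (7.69%) higher in every pair, beside 9.89% and 9.14% of all tested genes. PMAIP1, which encodes the BH3-only protein NOXA, stood at 29.4, 25.6 and 26.0 CPM against 20.5, 22.0 and 22.1 CPM (-0.33 ± 0.10, adjusted p = 1), without overlap.

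Of 20 tested cytokine, chemokine and NF-kB genes 5 (25%) were lower and 2 (10%) higher in every pair, beside 9.89% and 9.14% of all tested genes. CXCL8, the neutrophil chemokine interleukin 8, stood at 15.6, 11.9 and 2.11 CPM with siNC and 4.41, 4.03 and 2.09 CPM with siRHOB, so it was lower in pairs 1 and 2 and level in pair 3 (pair log2 ratios -1.81, -1.55 and -0.02, log2 fold change -1.25 ± 0.29, adjusted p = 1, and 1.27e-14 without replicate 3, with 1.27e-14 to 1 over its alternatives). Of 24 tested interferon response genes, which double-stranded RNA can switch on, 1 was lower and 3 higher in every pair. Unfolded protein response and chaperone genes, which respond to misfolded protein in the endoplasmic reticulum, had 1 of 30 lower and 2 higher in every pair, and the cytosolic ribosomal protein genes 1 of 78 lower and 2 higher. The median log2 ratio of the ribosomal protein genes changed sign between pairs, at -0.13, 0.09 and -0.09. In MK medium 40 of the 78 were lower and 2 higher in every pair, where 13% and 13.4% of the genes tested in both media were.

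The same-direction genes of growth medium were set beside those of MK medium, whose libraries are all different ones. Of the 1245 genes lower in every growth pair, 175 were lower in every MK pair, which is 14.1% of the growth list and 10.7% of the 1640 MK genes, and 126 were higher in every MK pair. Of the 1150 higher genes, 141 were higher in every MK pair (12.3% of the growth list and 8.36% of the 1687 MK genes) and 134 were lower. Over the genes tested in both media, 13% were lower and 13.4% higher in every MK pair, so the shared shares lie near those over all genes. No gene passed the adjusted threshold for siRHOB in MK medium (0 of 14026, with 267, or 1.9%, at an unadjusted p under 0.05), nor for the difference of the effects between media (0, with 440, or 3.14%, at an unadjusted p under 0.05), in edgeR.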

How the data were processed

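RNA was measured by sequencing of polyT-selected RNA in 12 libraries, of which the 6 in growth medium entered the paired comparison. The authors deposited whole-number read counts per gene and a table of FPKM values. For genes with enough reads, the length implied by count, FPKM and library total was constant across libraries (largest ratio 1 over 13610 genes). The gene lengths themselves were not checked. Per the submitters' processing notes the tools were HISAT2 2.2.1, featureCounts 2.0.2 and edgeR on GRCh37.p13; no source used here states the strand, annotation or multi-mapping settings. No gene coordinates of that build are given, and promoter windows are on GRCh38.p14.

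Counts were tested with edgeR 4.0.16 (R 4.3.3, limma 3.58.1): TMM scaling, filterByExpr by group, a block for replicate number plus group, a robust quasi-likelihood test, two-sided, and a Benjamini-Hochberg adjusted p under 0.05 over 12585 genes. Standard errors (SE) come from the same fit. Pair ratios are log2 CPM with a prior count of 2. DESeq2 1.42.0 and limma on log2(FPKM + 1) were alternatives. The procedure was tested on simulated counts in which both libraries of every pair shared the replicate effect. The data show such sharing for number 3 only, so that run does not cover the pairing of numbers 1 and 2. MK medium and the difference between media were read from a fit of all 12 libraries with a block within each medium.

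The replicate number was used as a block because the comparison was defined as paired by replicate number. Deviations from the group mean of same-numbered libraries correlated at 0.32, 0.36 and 0.76 for numbers 1, 2 and 3. The data pair number 3 only: numbers 1 and 2 correlated more with each other (0.48 and 0.46) than with themselves, and the difference of replicate 1 minus 2 correlated at -0.14 between siNC and siRHOB. Pairs 1 and 2 therefore rest on the labels' numbers. No 2 libraries of a group agreed within sampling noise (chi-square per gene of 12.2 or more).

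Genes sharing over 20% of 100-base GENCODE 29 transcript windows with another gene, or pseudoautosomal, were marked as uncertain. The text names RHOB, RHOA and RHOC, genes past the threshold and the 12 steadiest genes in each direction at 5 CPM or more. A rule also picked the most abundant member of every list and up to 4 of smallest p, and only some of these are named. Some preset genes of lineage, division and cytoskeleton are named too. Other list members were named after their values were seen. A few genes are not reported here. The members and the 29 lists were chosen with earlier results of these data known.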

Additional observations from a re-analysis of the deposited data

Results flagged for a closer look

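Of the tested genes, 126 that were lower in all 3 growth pairs were higher in all 3 MK pairs, and 134 that were higher in growth medium were lower in MK medium. The 5 genes given here are those among the genes named in the text, so they are a small part of that background. The difference of the siRHOB effects, growth minus MK medium, was tested in the edgeR fit of 12 libraries and did not pass the adjusted threshold for any of them. For PPP2R3B it was -2.81 ± 0.43 (SE, adjusted p = 0.0658), with MK pair log2 ratios of 0.01, 0.87 and 0.51. For S100A1 it was 0.50 ± 0.17 (adjusted p = 1). For PDGFB it was -0.53 ± 0.13 (adjusted p = 0.849), with levels of 259 to 316 CPM in MK medium. For CD36, the thrombospondin receptor, which was higher in all growth pairs (0.23, 0.63 and 0.41) and lower in all MK pairs (-0.81, -0.59 and -1.13), it was 1.34 ± 0.48 (adjusted p = 1), at 6 to 25 reads per MK library. For SLC38A2, an amino acid transporter of the stress list, it was -0.24 ± 0.09 (adjusted p = 1).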

How the results depend on the processing

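Few genes passed in any setting, and which ones depended on the fit. The 0 genes higher and 2 lower became 0 and 0 without the replicate block and with 12 libraries and a common block, 0 and 3 (FOS, PPP2R3B and ACE) with 12 libraries and a block within medium, 1 and 2 with RLE scaling, 1 and 11 with no filter on low counts, 0 and 1 with a non-robust dispersion, 1 and 5 in DESeq2 and 1 and 1 in limma on FPKM. Leaving out a replicate gave 2 to 5 higher and 15 to 24 lower, with 2 pairs each. Chosen after seeing the data, a block of 2 levels gave 0 and 1, the numbers 1 and 2 crossed 0 and 4, and leaving out genes with copies 0 and 1. RHOB passed only without replicate 2; leaving out a replicate gave log2 fold changes of -1.21 to -0.73. Same-direction counts with 2 pairs were 2547 to 3207 higher and 2464 to 3571 lower. Counts past 1.5-fold in every pair (11 higher, 29 lower) were 56 and 107 with no filter, 19 and 34 with a prior count of 0.5, 1 and 2 on FPKM, and 52 to 69 and 107 to 131 with a replicate left out. With a replicate left out, list members lower in every pair left were 26 to 33 for the stress list, 20 to 23 for the immediate early list, 11 to 18 for the cholesterol list and 10 to 14 for the erythroid list, and 16 to 21 G2/M genes were higher; the median log2 fold change was -0.16 to -0.095 for the stress list, -0.18 to -0.16 for the immediate early list, -0.081 to -0.050 for the cholesterol list and -0.059 to -0.019 for the erythroid list. Signs of values near 0 turned when a replicate was left out for RHOA (log2 fold changes of -0.0012 to 0.036), RHOC (-0.13 to 0.075), ITGA2B (-0.069 to 0.19), GATA1 (-0.10 to 0.12), CCNB1 (-0.057 to 0.10) and MYH9 (-0.028 to 0.14). Of the values of single genes under the alternatives, 1202 kept their direction and side of the threshold, 48 newly passed, 9 no longer passed and 6 turned. With 3 pairs at this depth, genes of few reads such as NR4A3, at 0 to 15 reads per library, have wide errors. The causes were not tested.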

Other observations

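Hypoxia and glycolysis genes were not described above. Of 28 tested, 3 (10.7%) were lower and 1 (3.57%) was higher with siRHOB in every pair, beside 9.89% and 9.14% of all tested genes, with a median log2 fold change of -0.06. ALDOC, a glycolytic aldolase, had pair log2 ratios of -0.12, -0.46 and -0.28 (log2 fold change -0.29 ± 0.08, adjusted p = 1, edgeR), and EGLN3, a prolyl hydroxylase induced by low oxygen, a log2 fold change of -0.25. Of 24 tested microtubule and tubulin genes 2 were lower and 1 higher in every pair, and of 15 genes of the RNA interference machinery 0 were lower and 2 higher. NPIPA7, a member of a family of near-identical copies and so uncertain, had 51, 185 and 41 reads with siNC and 5, 45 and 16 with siRHOB, and was chosen after its values were seen.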
